A study of Mus musculus with 20 samples.

Results

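Absorptive enterocytes are the nutrient-absorbing cells that line the villi of the small intestine, and 10 genes that characterise them were followed here: Apob, Mttp, Apoa1, Apoa4, Fabp1, Fabp2, Lct, Sis, Alpi and Slc5a1. They were chosen by name, not by any measured value, as every non-control probe on the array that carries one of these symbols. This gave 11 probes (a pair for Apob and a single probe for each of the others) of 39429 probes for 30342 genes or transcripts. The genes were measured in C57BL/6 mice labelled Irgm1-/- or wild type. Irgm1 is an interferon-inducible GTPase, and the series compared the genotypes in 3 tissues to find interferon-stimulated genes. Whole small intestine, which the labels call duodenum, came from 3 mice labelled Irgm1-/- (2 male, 1 female) and 3 wild type mice (all female), aged 6 to 8 weeks in both genotypes. Isolated colonic macrophages came from the same 6 animals. Whole salivary gland came from 4 females labelled Irgm1-/- aged 9 weeks and 4 wild type females aged 6 to 7 weeks. Genotype therefore runs with sex in the intestine and the macrophages, and with age in the salivary gland.

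The products of these genes act along the path of a meal across the gut lining. Sis (sucrase-isomaltase) and Lct (lactase) are brush border enzymes that split dietary sugars, Alpi is the intestinal alkaline phosphatase of the same membrane, and Slc5a1 is the sodium-coupled carrier SGLT1 that takes up the glucose and galactose released. Fabp1 and Fabp2 are small proteins that bind fatty acids inside the cell. Absorbed fat is packed into chylomicrons, particles built on a single molecule of apolipoprotein B (Apob) that the transfer protein encoded by Mttp loads with lipid. Apoa1 and Apoa4 are apolipoproteins carried on those particles. Apob, Mttp, Apoa1 and Fabp1 are also strongly expressed in the liver, so they do not mark enterocytes alone.

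Levels are given on the log2 scale relative to the 75th percentile of each array, so 0 is the brightness that 75% of probes fall below and a step of 1 is a 2-fold change. The 75th percentile itself ran from 2322 to 4690 intensity units in small intestine, from 922 to 2137 in macrophages and from 130 to 1022 in salivary gland. In small intestine every array labelled Irgm1-/- (3868 to 4690) was brighter than every wild type array (2322 to 3204), and the part of this in the genotype differences below was tested only through other ways of scaling. The brighter probe for Irgm1, the targeted gene, read 2.16, 2.09 and 2.24 in small intestine labelled Irgm1-/- and 0.96, 1.1 and 0.94 in its wild type. In macrophages it read 0.50, 0.95 and 0.47 against -0.69, 0.24 and -0.26. In salivary gland it read 3.77, 3.38, 2.68 and 3.18 against 0.66, 0.70, 0.74 and 0.74. The labelled knockout was thus the higher group in each tissue, with no overlap. This was so for the dimmer Irgm1 probe too, at 0.51, 0.49 and 0.86 against -1.47, 0.03 and -0.25 in small intestine. The deleted part of Irgm1 was not given in the sources used here, so the probes do not check the labels, and the genotypes are named below as labelled.

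The intestinal arrays carried strong epithelial signal, with all markers of distal intestine, but not all of proximal intestine, well above background on every array. All 10 pan-epithelial markers were tested there, and Krt8 and Cldn7 had wild type means of 7.03 and 6.77. Markers of gut position were chosen after values had been seen. Of 9 proximal markers, 6 were well above background on all 6 arrays: Slc40a1 read 1.30 to 3.03, Cck 0.92 to 2.07, Gip -0.96 to 1.16, Cybrd1 -2.55 to -2.10, Slc2a2 -3.99 to -1.30 and Gata4 -3.41 to -0.33. Of these, Gata4 and Cck were also well above background on all 8 salivary gland arrays. Onecut2 was well above background on 5 of the 6 intestinal arrays. The probes for Pdx1, a factor of duodenum and pancreas, and Akp3, the duodenal alkaline phosphatase, were so on 0. On the 6 macrophage arrays the Pdx1 probe was well above background on 5 and the Akp3 probe on 6. The 7 distal markers were well above background on all 6 intestinal arrays. Of these, Fabp6, the ileal bile acid binding protein, read 6.74 to 7.52, Slc10a2, the ileal bile acid carrier, 1.19 to 1.98, and Nts 3.39 to 4.11. The distal markers Fabp6 (0.24 to 2.98 there), Slc51a, Slc51b and Pyy were also well above background on all 6 macrophage arrays. So were the proximal markers Slc40a1 and Cck. The tissue is called small intestine here. In whole tissue, fewer cells of a type and less RNA per cell cannot be told apart.

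The enterocyte genes were far higher in wild type small intestine than in both other tissues. All 10 were higher than in wild type macrophages, where 36.6% of the 23702 genes tested were called higher in intestine. For the 7 read well above background on any wild type macrophage array, adjusted p ran from 1.16e-11 to 1.15e-07 (limma, Benjamini-Hochberg). In 3 of the 10 no wild type macrophage array was well above background, so their differences are only bounds, and the median was 6.48 on the log2 scale with these at their bound (7.49 as fitted) against -0.44 for all genes. All 10 were also higher than in wild type salivary gland, against a background of 23.9% called higher. There 8 of the 10 have only a bound, with a median of 4.84 at the bounds (6.22 as fitted) against -0.82 for all genes. Members with a bound passed the filter on low values through the intestine, so these counts and medians describe the genes and support nothing further. Scan day ran with tissue, and these cannot be told apart.

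Apob has the only pair of probes among these genes, and they did not give the same picture. The brighter starts at base 13457 of the transcript and the dimmer at base 4473, each 60 bases long, and both sequences are shown because the Apob result depends on which is read.
Apob, base 13457: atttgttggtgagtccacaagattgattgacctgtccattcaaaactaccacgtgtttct
Apob, base 4473: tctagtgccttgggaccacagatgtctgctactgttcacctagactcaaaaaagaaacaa
The probe at base 13457 stood for the gene. It read 4.70, 4.95 and 4.91 in wild type small intestine, -3.04, -5.11 and -3.8 in wild type macrophages, and -1.08, -1.08, -0.34 and 0.17 in wild type salivary gland. Only 1 of the 3 wild type macrophage arrays was well above background for it, while all 4 salivary gland arrays were. The differences were 8.83 (SE 0.55) from macrophages and 5.43 (SE 0.52) from salivary gland.

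The probe at base 4473 read -3.74, 1.47 and 1.0 in wild type intestine and -0.46, -1.56 and -1.04 in wild type macrophages, all well above background. Wild type intestine replicate 1 lay below every macrophage array, so the tissues overlapped. By this probe intestine exceeded macrophages by 0.60 (SE 1.02, limma adjusted p = 0.593, from a fit of every probe as its own row that was added after seeing the data). From salivary gland, where it was well above background on 0 of 8 arrays, the fitted difference was 2.41 (SE 0.95). That value rests on salivary gland signals at background, so no test is read from it. Wild type intestine replicate 1 (-3.74) also lay below every wild type salivary gland array (-3.67 to -1.85). The brighter probe thus passed the test against macrophages and the dimmer did not.

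Mttp, the partner of Apob in particle assembly, read 2.98, 2.53 and 2.75 in wild type intestine. In wild type macrophages it read -3.68, -3.78 and -3.21, with 2 of the 3 arrays well above background. The difference was 6.31 (SE 0.38). In salivary gland no array was well above background for Mttp. Where this holds for every array of the dimmer group, the difference is only a bound, taken against the lowest signal called well above background on each array or the probe's own signal where that was higher. For Mttp the intestine was at least 13.8-fold above salivary gland.

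Apoa1, the main apolipoprotein of high-density lipoprotein, read 6.80, 6.91 and 6.99 in wild type intestine. Its probe is spotted 10 times on each array, and the spots of an intestinal array varied by 4.89% to 7.01% (coefficient of variation). Wild type macrophages read -5.24, -4.70 and -1.02, and only the last of these, replicate 3, was well above background. The difference was 10.56 (SE 0.76), and without that array only a bound of at least 1460-fold was left. Against salivary gland the bound was at least 245-fold.

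Apoa4, an intestinal apolipoprotein that rises with fat feeding, read 2.35, 3.98 and 4.37 in wild type intestine, where replicate 1 stood below the others. It was well above background on every macrophage array, at -2.23, -1.78 and -1.32 in wild type. The difference was 5.34 (SE 0.55), and the bound against salivary gland was at least 24.2-fold.

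The fatty acid binding proteins differed in how far they were read outside the intestine. Fabp2, the intestinal form, read 7.36, 6.82 and 7.17 in wild type intestine and 3.90, 2.52 and 2.64 in wild type macrophages, where all arrays were well above background. Its difference of 4.10 (SE 0.32) was the smallest of the 10 from macrophages. Fabp1, the form shared with liver, read 1.58, 1.6 and 2.0 in wild type intestine and was well above background on 0 macrophage and 0 salivary gland arrays. The bounds for Fabp1 were at least 46.7-fold over macrophages and at least 6.77-fold over salivary gland. For Fabp2 the bound over salivary gland was at least 284-fold.

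The brush border sugar-splitting enzymes were read in intestine alone, in that neither probe was well above background on any macrophage or salivary gland array. Sis read 6.27, 5.98 and 6.12 in wild type intestine, at least 983-fold above macrophages and at least 142-fold above salivary gland. Lct read 3.22, 1.44 and 3.8, at least 99.9-fold and at least 14.5-fold above them. Sis varied little between wild type mice (SD 0.14, n = 3), and Lct varied widely (SD 1.23, n = 3).

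Alpi read 4.03, 3.64 and 3.76 in wild type intestine and -2.70, -5.91 and -2.62 in wild type macrophages, where 2 of 3 arrays were well above background. The difference was 7.55 (SE 0.81), and the bound against salivary gland was at least 28.7-fold. Slc5a1, the glucose carrier, read 3.47, 3.57 and 3.94 in wild type intestine. It was well above background on every macrophage array, at -0.88, -1.47 and -1.62 in wild type, and on 3 of the 8 salivary gland arrays, at -1.49 to -1.09 over all 8. Its differences were 4.98 (SE 0.25) from macrophages and 4.84 (SE 0.24) from salivary gland. Thus Fabp2, Slc5a1, Apoa4 and the dimmer Apob probe were the ones read on every macrophage array.

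**Figure D1:**
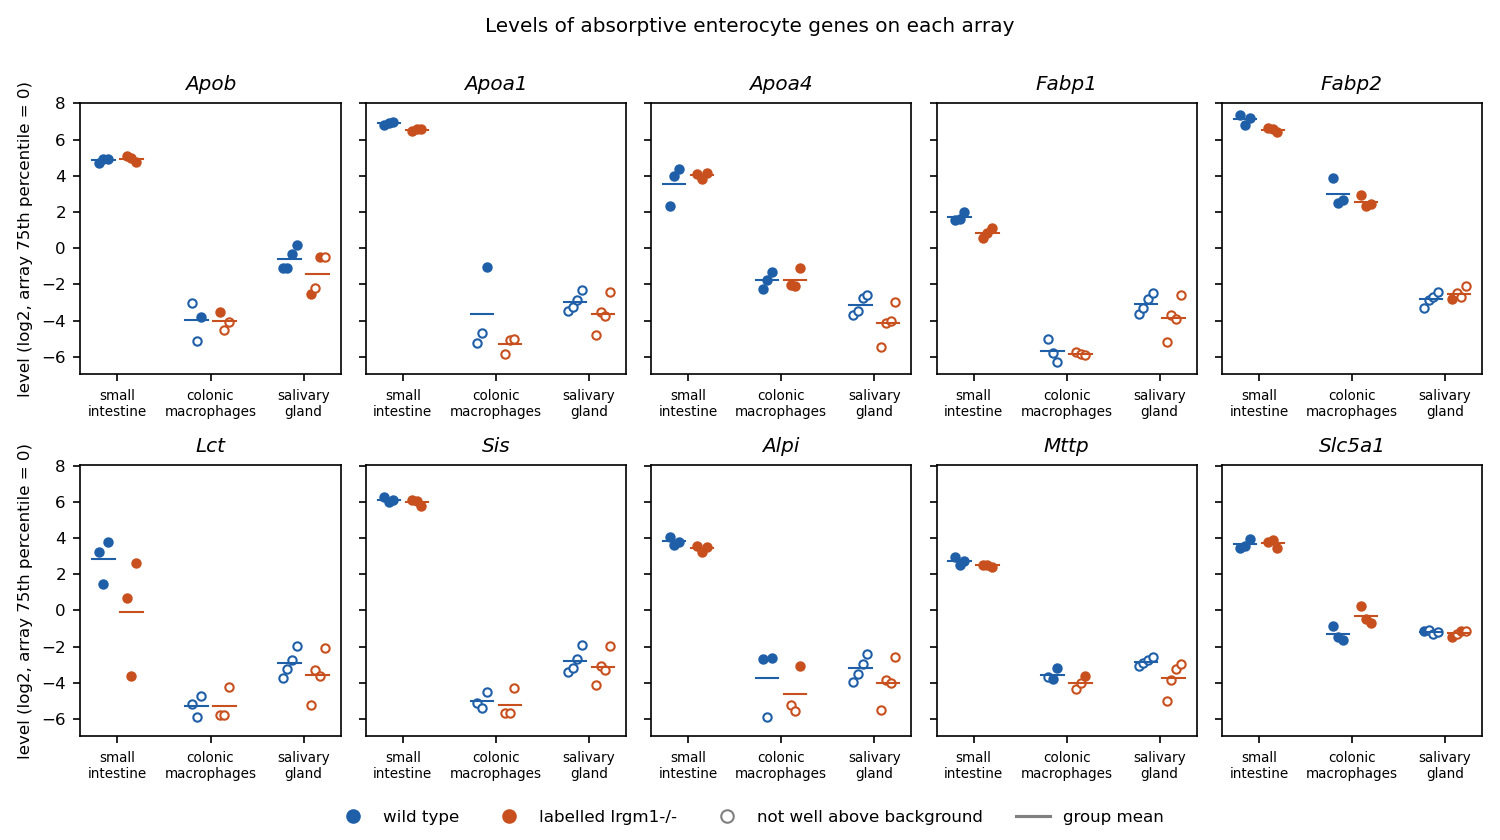
Levels of the 10 enterocyte genes on each of the 20 arrays, in log2 units relative to the array's 75th percentile, by tissue and labelled genotype, with Apob shown by its probe at base 13457. Filled points were well above background, open points were not, and bars are group means of 3 or 4 arrays; in small intestine all points are filled and Lct is the gene with the widest spread, from -3.64 to 3.8.

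In small intestine none of the 10 genes passed the test between the labelled knockout and wild type (0 of 10 at an adjusted p under 0.05, limma; 3 of 10 at an unadjusted p under 0.05). Over the 18054 genes tested 0.144% passed, all of them higher in the arrays labelled Irgm1-/-, and 6.95% had an unadjusted p under 0.05. Of the 10, 7 were lower and 3 higher in the arrays labelled Irgm1-/-, with a median of -0.31 against -0.10 for all genes, and 62.5% of all genes were lower. For 5 genes (Apoa1, Fabp1, Fabp2, Alpi and Mttp) every array labelled Irgm1-/- lay below every wild type array, which was so for 12.5% of all genes. In 0 of the 10 did the groups separate the other way, against 5.38% of all genes.

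Of the chylomicron genes, Apob read 5.11, 4.98 and 4.74 in the arrays labelled Irgm1-/- against the wild type values above, and the groups overlapped. The difference was 0.09 (SE 0.16, 95% interval -0.30 to 0.48, limma adjusted p = 0.821). By its dimmer probe Apob read -0.35, 1.42 and 1.5 against -3.74, 1.47 and 1.0, a difference of 1.28 (SE 1.41, limma adjusted p = 0.720) in which wild type replicate 1 lay below the other 5 arrays. Mttp read 2.53, 2.52 and 2.39, just below the lowest wild type array, and its difference was -0.27 (SE 0.16, 95% interval -0.67 to 0.12).

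Apoa1 was the steadiest of the genes within a genotype. It read 6.49, 6.57 and 6.58 in the arrays labelled Irgm1-/-, below the wild type arrays at 6.80 to 6.99. The difference was -0.36 (SE 0.13, 95% interval -0.68 to -0.03, limma adjusted p = 0.666), and it came to 0.10 under quantile normalization and 0.11 in the authors' table. Apoa4 read 4.12, 3.85 and 4.14, within the wild type range of 2.35 to 4.37. Its difference of 0.47 (SE 0.51, limma adjusted p = 0.719) turned to -0.14 without wild type replicate 1. Within slides it was 1.77 on the slide holding that array and -0.18 on the other.

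Fabp1 had the lowest adjusted p of the 10, still above the threshold. It read 0.57, 0.83 and 1.09 in the arrays labelled Irgm1-/- and 1.58, 1.6 and 2.0 in wild type, with a difference of -0.90 (SE 0.20, 95% interval -1.39 to -0.41, limma adjusted p = 0.414). The mice carry numbers that pair them by slide and age, and the same-numbered differences were -1.01, -0.77 and -0.91. Fabp2 read 6.63, 6.58 and 6.45 against 7.36, 6.82 and 7.17, a difference of -0.56 (SE 0.18, 95% interval -1.0 to -0.13, limma adjusted p = 0.666). Both binding proteins were thus lower in all 3 pairs.

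Sis read 6.11, 6.05 and 5.77 in the arrays labelled Irgm1-/-, overlapping wild type, and its difference was -0.14 (SE 0.16, 95% interval -0.53 to 0.25). It came to 0.22 both under quantile normalization and in the authors' table. Alpi read 3.54, 3.23 and 3.49, each below the lowest wild type value of 3.64, with a difference of -0.39 (SE 0.17, 95% interval -0.80 to 0.02). Slc5a1 read 3.79, 3.92 and 3.43, overlapping wild type, with a difference of 0.05 (SE 0.20, 95% interval -0.43 to 0.54, limma adjusted p = 0.912).

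**Figure D2:**
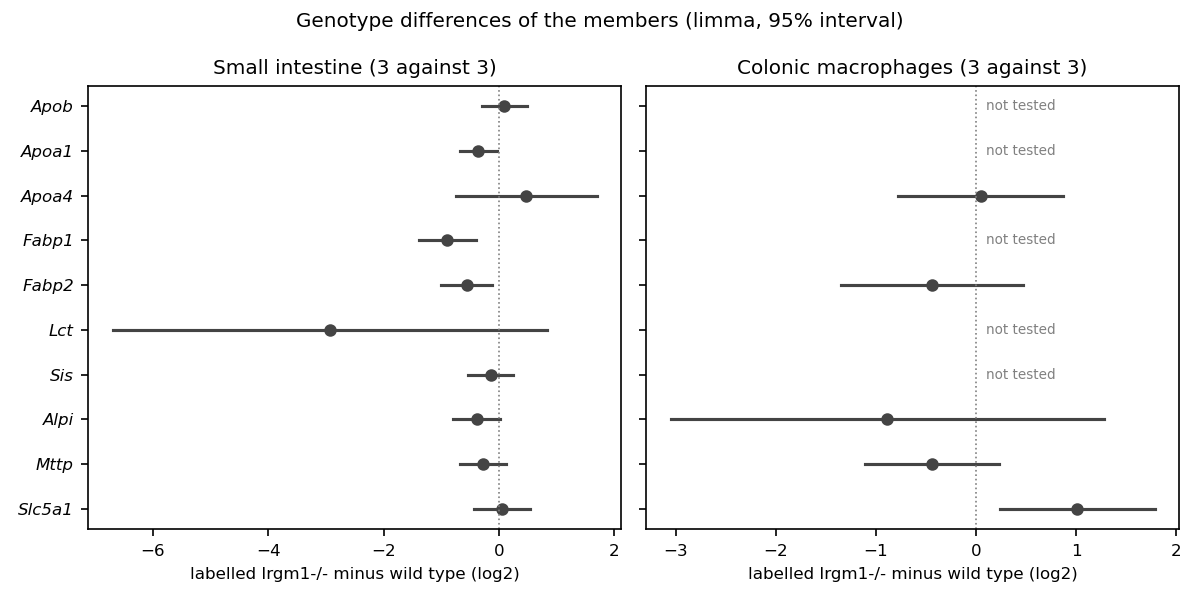
Difference between the arrays labelled Irgm1-/- and wild type for each enterocyte gene, in log2 units, in small intestine and in colonic macrophages, with 95% intervals from limma (3 arrays a group). The intestinal intervals of Apoa1, Fabp1 and Fabp2 lie below 0, the interval of Lct is by far the widest (-6.70 to 0.83), and in macrophages the interval of Slc5a1 lies above 0.

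Lct had the largest difference and the largest spread. It read 0.68, -3.64 and 2.62 in the arrays labelled Irgm1-/- and 3.22, 1.44 and 3.8 in wild type, all well above background, and the groups overlapped. The difference was -2.93 (SE 1.56, 95% interval -6.70 to 0.83, limma adjusted p = 0.666). All 3 same-numbered pairs were lower, by differences of -2.54, -5.09 and -1.17. The lowest array of each genotype was replicate 2, the 8 week old animal, and the other mice were 6 weeks old. Without replicate 2 of the arrays labelled Irgm1-/- the difference came to -1.17, and without replicate 3 it came to -4.30. Among females alone it was -0.20, with 1 array labelled Irgm1-/- against 3 and that array assumed to vary like the others. That female was 6 weeks old, and the wild type females included the 8 week old replicate 2. Its same-numbered pair, female and 6 weeks old in both genotypes, gave the difference of -1.17. With the mouse number as a block the SE fell to 0.75, and the adjusted p was 0.530 (limma). Lactase falls at weaning as a matter of textbook knowledge. With 1 animal of 8 weeks in each genotype, the part of age in the low Lct arrays was not tested. Age was matched between the genotypes over all small intestine arrays but not among the females, and sex was not matched. The part of sex in the Lct difference was not tested beyond the value in females.

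Among the transcription factors known to drive intestinal genes, Gata4 had the largest difference. It encodes a zinc finger protein of the proximal intestine that is known to act on the lactase promoter. Gata4 read -2.89, -3.41 and -1.85 in the arrays labelled Irgm1-/- and -0.33, -1.76 and -0.96 in wild type, without overlap, a difference of -1.70 (SE 0.50, limma adjusted p = 0.649). Replicate 2 was the lowest array of each genotype for Gata4 as it was for Lct, while the highest wild type array was not the same for both. The part of Gata4 in the Lct difference was not tested. Its relative Gata6 read 1.81, 1.74 and 1.78 against 1.63, 1.70 and 1.78, a difference of 0.07, and Cdx2, the master regulator of intestinal identity, differed by 0.04. Hnf4g, a nuclear receptor of enterocytes, differed by 0.48 (limma adjusted p = 0.666), and Hnf4a by -0.22.

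**Figure D3:**
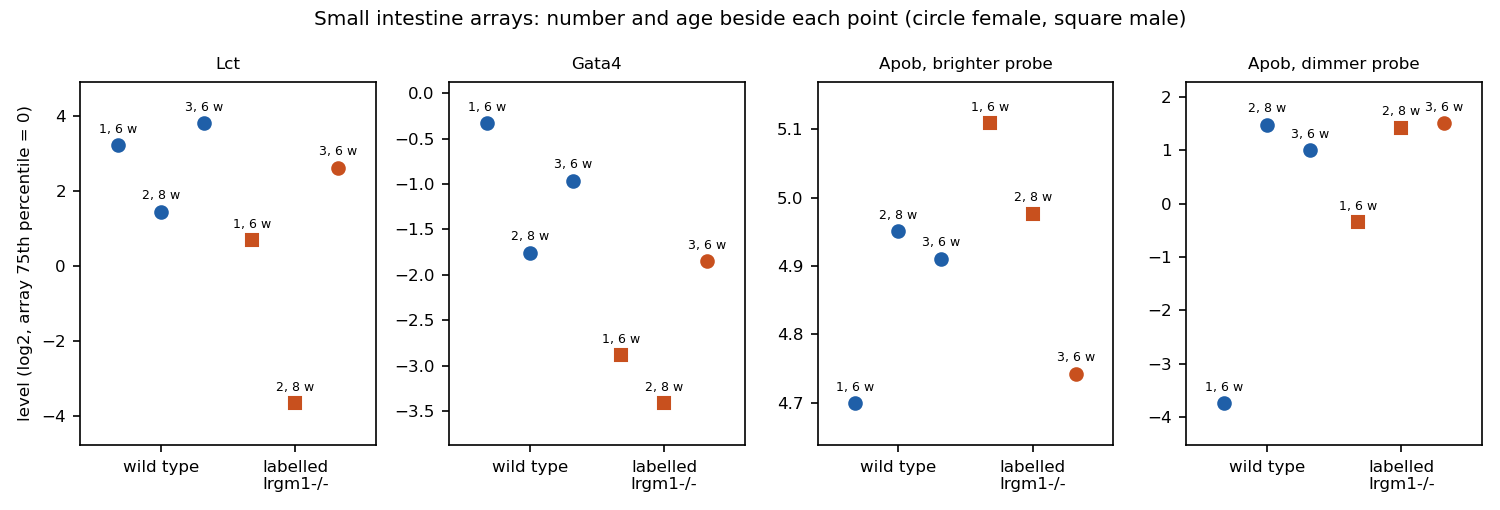
Levels on the 6 small intestine arrays of Lct, Gata4 and both Apob probes, in log2 units relative to the array's 75th percentile, each panel with its own scale; the replicate number and age in weeks stand beside each point, circles are females and squares males. Replicate 2 is lowest in each genotype for Lct and Gata4, and the dimmer Apob probe has a single low array, wild type replicate 1 at -3.74.

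The promoters of Lct, Sis and Fabp1 are shown because these genes had the widest difference, a small difference and the lowest adjusted p in intestine. All 10 genes were found in the RefSeq promoter table (GRCm38.p6), and the 250 bases before each start were searched on both strands for 4 short motifs, with matches in capitals.
Lct, chr1:128328319-128328568, minus strand: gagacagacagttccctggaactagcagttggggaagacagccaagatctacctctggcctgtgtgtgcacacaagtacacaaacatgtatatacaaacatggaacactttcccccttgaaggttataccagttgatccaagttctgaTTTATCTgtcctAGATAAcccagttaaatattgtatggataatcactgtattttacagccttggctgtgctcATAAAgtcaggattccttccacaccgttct
Sis, chr3:72967864-72968113, minus strand: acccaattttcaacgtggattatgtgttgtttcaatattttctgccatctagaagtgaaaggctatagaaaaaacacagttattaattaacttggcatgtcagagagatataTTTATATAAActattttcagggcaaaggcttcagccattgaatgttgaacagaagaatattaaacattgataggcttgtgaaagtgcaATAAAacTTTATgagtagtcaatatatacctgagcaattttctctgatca
Fabp1, chr6:71199629-71199878, plus strand: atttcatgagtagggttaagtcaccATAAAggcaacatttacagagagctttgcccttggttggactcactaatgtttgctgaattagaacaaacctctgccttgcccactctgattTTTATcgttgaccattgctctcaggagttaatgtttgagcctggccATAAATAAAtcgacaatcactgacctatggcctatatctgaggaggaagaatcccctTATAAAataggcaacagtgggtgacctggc
A GATA motif (AGATAA or its reverse complement TTATCT) was present in 1 of the 10 and in 9.99% of the 32851 promoters of the table. The count of members was thus near the share over all promoters. The member was Lct, with matches at bases 101 to 96 and 90 to 85 before the start.

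A CDX motif (TTTAT or ATAAA) was present in 6 of the 10 (Apob, Fabp1, Fabp2, Lct, Sis and Alpi) and in 37.3% of all promoters. An HNF4 motif (CAAAGT or ACTTTG) was present in Apoa4, Fabp2 and Alpi and in 12.6% of all promoters. A TATA motif (TATAAA or TTTATA) was present in Apob, Fabp1, Sis and Alpi and in 12.4% of all promoters. Every TATA match contains a CDX match, and in Lct the run TTTATCT holds a CDX and a GATA match that overlap. These are matches of letters in a window and are not measured binding sites.

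How the arrays were scaled decided the sign of the summary over the 10 genes. The median of the members was -0.31 with the 75th percentile, -0.42 with each array set to its median, -0.20 with the percentile over probes detected on every array and -0.27 after normexp background correction. Under quantile normalization and in the authors' table it was 0.02. The median of all genes ran from -0.20 to 0.02 over these settings. None of the 10 passed the threshold in any of the settings tried for the small intestine. The number of calls over all genes was less steady, and it fell from 26 to 1 with the mouse number as a block.

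**Figure D4:**
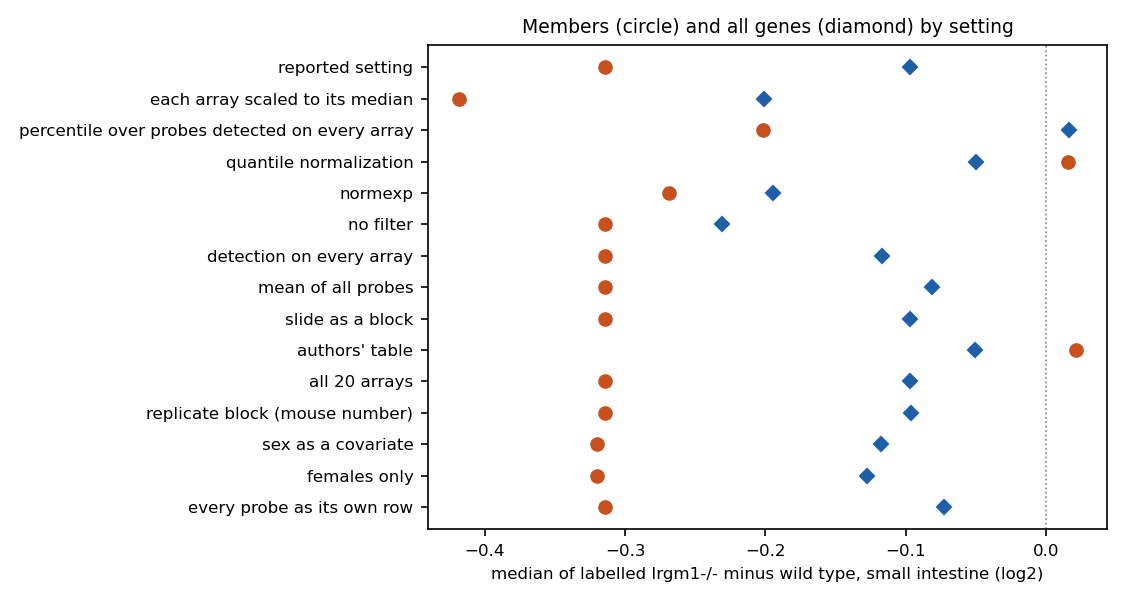
Median difference between the arrays labelled Irgm1-/- and wild type in small intestine under each setting, in log2 units, for the 10 enterocyte genes (circles) and for all genes tested (diamonds). The circles lie between -0.42 and -0.20 except under quantile normalization and in the authors' table, where they lie at 0.02.

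Other genes of the enterocyte were taken from lists by role, and none of them passed the test in small intestine. Of 22 genes of fat absorption and lipoprotein assembly, 16 were lower and 6 higher, with a median of -0.27, and the furthest were Abca1, a cholesterol exporter (-0.62, SE 0.31), and Pla2g12b (-0.57, SE 0.17). Of 16 brush border hydrolases tested, 14 were lower and 2 higher, with a median of -0.36, and the furthest were Ace, the angiotensin-converting peptidase (-0.84, SE 0.30), and Asah2, a ceramidase (-0.71, SE 0.22). Of 21 transporters, 17 were lower and 4 higher, with a median of -0.27. The furthest was Slc9a3, the sodium-proton exchanger NHE3 (-1.03, SE 0.28, limma adjusted p = 0.601), and the calcium binding protein S100g read the other way (0.63, SE 0.43).

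Of 12 genes of brush border structure, 9 were lower and 3 higher, with a median of -0.27. Cdhr2, a cadherin that links microvilli, differed by -0.67 (SE 0.26), and Lima1 by 1.12 (SE 0.64) from 5 of the 6 arrays. Of 16 transcription factors, 9 were lower and 7 higher, with a median of -0.07. The enterocyte lists other than the transcription factors were thus, like the 10 genes, centred below the all-gene median of -0.10. Under quantile normalization, where that median was -0.05, they came to -0.06 for fat absorption, -0.07 for the hydrolases, -0.06 for the transporters and -0.04 for structure. The transcription factors turned to 0.08 there and to 0.04 with the percentile over detected probes.

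Markers of several other cell types were also centred below that median. Pan-epithelial markers were lower for 10 of 10 (median -0.36), goblet cell markers for 8 of 9 (-0.38), Paneth cell markers for 4 of 4 (-0.57), enteroendocrine markers for 7 of 8 (-0.48) and T cell markers for 8 of 8 (-0.39). Hepatocyte markers were lower for 5 of 5 (-0.30) and pancreatic acinar markers for 4 of 6 (-0.32), while colonocyte markers were lower for 4 of 8 (-0.06). Macrophage markers were higher for 9 of 13 (0.38), smooth muscle markers for 4 of 6 (0.09) and B and plasma cell markers for 2 of 7 (-0.20). Under quantile normalization the pan-epithelial, goblet and Paneth medians came to -0.03, -0.05 and -0.24, and the smooth muscle median turned to -0.02 with each array set to its median. With 0 genes of these lists past the threshold, these are counts and medians only.

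Summed over a list, the 10 enterocyte genes came to 8.43, 8.39 and 8.31 in the arrays labelled Irgm1-/- and 8.75, 8.57 and 8.80 in wild type (log2 of the summed levels). The pan-epithelial sum was 8.73, 8.85 and 8.56 against 9.29, 8.92 and 9.06, the goblet cell sum 8.85, 9.04 and 8.70 against 9.55, 9.18 and 9.29, and the Paneth cell sum 7.42, 7.73 and 7.51 against 8.27, 7.85 and 8.17. With the scaling used here, the enterocyte, pan-epithelial, goblet and Paneth sums were each lower in the arrays labelled Irgm1-/- with no overlap between genotypes. The same held for the sums of enteroendocrine markers, fat absorption, hydrolases, transporters and brush border structure. It also held for lists with most markers not above background there. These were salivary acinar markers (0.32 to 0.57 against 1.13 to 1.31) and pancreatic acinar markers (-0.61 to -0.38 against -0.30 to 0.33). The drop was thus not particular to the epithelial lists. The sums were not tested under the other scalings. Before scaling, the enterocyte genes with the highest wild type levels did not lie lower in the arrays labelled Irgm1-/-. Fabp2 read 371213 to 465194 intensity units there and 361737 to 398892 in wild type. Apoa1 read 367922 to 433017 against 259512 to 385188, and Sis 247804 to 323621 against 178597 to 202289. The lowest signals of Fabp1, Lct and Alpi were in the arrays labelled Irgm1-/-, but the ranges overlapped. Fabp1 read 6859 to 9673 there against 6952 to 11046, and Lct 310 to 27922 against 8719 to 38419. Alpi read 36286 to 54425 against 37433 to 39848, so its highest signal was there too. Mttp, below every wild type array after scaling, lay above every one before it (22211 to 27076 against 18260 to 18648). The smooth muscle sum was 7.25, 7.24 and 7.25 against 7.23, 7.30 and 7.44. The macrophage sum was 5.57, 5.56 and 5.70 against 5.72, 5.56 and 5.78. Its brightest wild type member, Itgam, had a mean of 3.27 against 4.36. Of the 13 macrophage markers tested, 7 lay higher without overlap and 1 lower, against 5.38% and 12.5% of all genes. The part of the makeup of the tissue in the enterocyte differences was not tested. The markers with the highest wild type levels in their lists were Zg16 (7.30) and Tff3 (6.91) for goblet cells, Itln1 (6.72) and Lyz1 (6.33) for Paneth cells, Acta2 (6.29) and Tagln (5.16) for smooth muscle, and Itgam (4.36) and Csf1r (2.97) for macrophages.

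**Figure D5:**
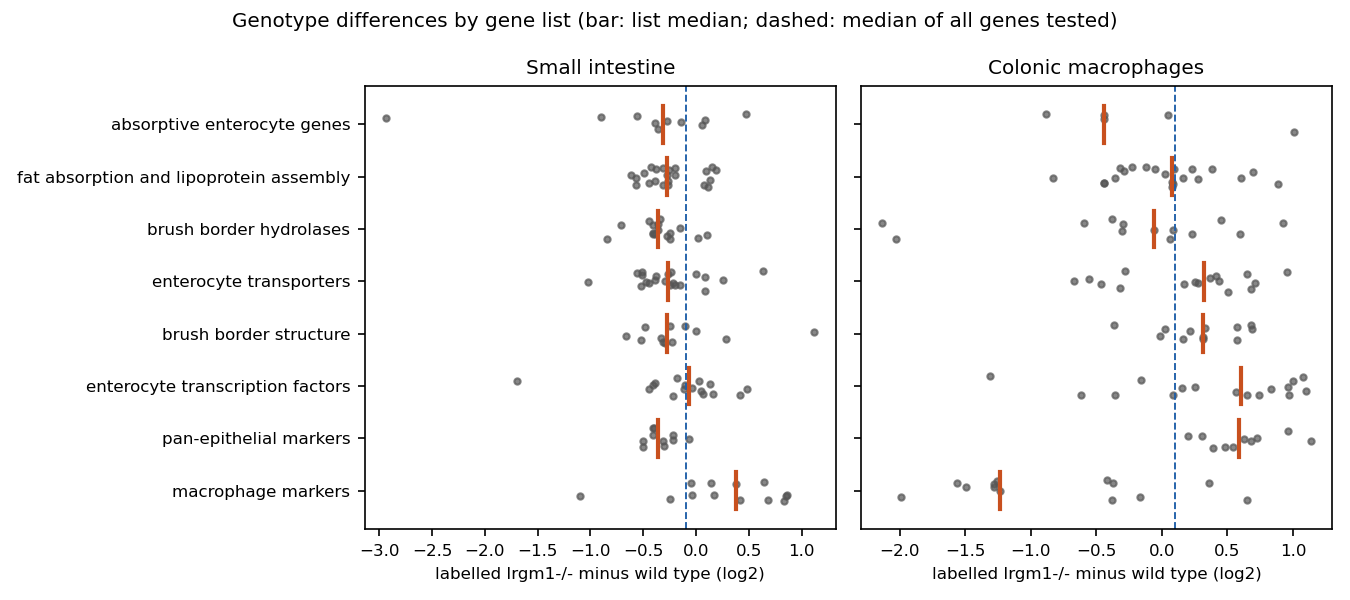
Difference between the arrays labelled Irgm1-/- and wild type for each gene tested, by list, in log2 units, in small intestine and in colonic macrophages; orange bars are list medians and the dashed line is the median of all genes tested (-0.10 and 0.10). In small intestine the bar of the 10 enterocyte genes lies at -0.31 and that of the macrophage markers at 0.38; in macrophages they lie at -0.44 (5 genes tested) and -1.23.

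In the isolated colonic macrophages 5 of the 10 genes passed the filter on low values and were compared between genotypes (Fabp2, Apoa4, Alpi, Mttp and Slc5a1), with Apob left out on its brighter probe. None passed (0 of 5 at an adjusted p under 0.05, limma; 1 at an unadjusted p under 0.05). Of the 21176 genes tested 0.137% passed and 10.4% had an unadjusted p under 0.05. The median of the 5 was -0.44 against 0.10 for all genes.

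Slc5a1 was the gene that stood out. It read 0.26, -0.49 and -0.71 in the macrophage arrays labelled Irgm1-/- and -0.88, -1.47 and -1.62 in wild type, without overlap, as was so for 7.12% of all genes in this direction. The difference was 1.01 (SE 0.34, 95% interval 0.24 to 1.79, limma adjusted p = 0.284), and the same-numbered pairs gave 1.14, 0.99 and 0.91. Blocking on the mouse number gave an SE of 0.18 and an adjusted p of 0.0341 (limma), in a fit where the calls over all genes went from 29 to 1102. From the spread of all 20 arrays the adjusted p was 0.0266 (limma). Among females alone the difference was 0.61 (limma adjusted p = 0.982), with 1 array labelled Irgm1-/-. Over all settings the adjusted p ran from 0.0266 to 0.982.

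Fabp2 read 2.94, 2.36 and 2.44 against 3.90, 2.52 and 2.64, a difference of -0.44 (SE 0.40, limma adjusted p = 0.834). Apoa4 read -2.02, -2.06 and -1.10 against -2.23, -1.78 and -1.32, a difference of 0.05 (SE 0.36). Alpi differed by -0.89 (SE 0.95) and Mttp by -0.44 (SE 0.29), each with arrays not well above background in both genotypes. The groups overlapped for Fabp2 and Apoa4. By its dimmer probe, well above background on all 6 macrophage arrays, Apob read -0.93, -1.31 and -1.16 against -0.46, -1.56 and -1.04, a difference of -0.11 (SE 0.32, limma adjusted p = 0.957).

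Epithelial RNA was present in the macrophage preparations. All 10 pan-epithelial markers were well above background on every macrophage array, with wild type means of 5.17 for Krt19 and 4.83 for Krt8. Their sum was 7.91, 7.52 and 7.01 in the arrays labelled Irgm1-/- and 7.67, 6.69 and 6.77 in wild type, and 10 of 10 were higher in the labelled knockout (median 0.58). Goblet cell markers summed to 8.24, 8.21 and 7.44 against 7.71, 6.99 and 7.17, with Fcgbp (5.57) and Zg16 (4.88) the highest in wild type. Colonocyte markers summed to 8.10, 8.17 and 7.25 against 8.27, 7.43 and 7.51, with Muc3 (7.53) and Car1 (3.27) the highest.

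The summed macrophage markers were 7.72, 7.98 and 7.30 against 8.17, 7.79 and 7.69, with Itgam (7.72) and C1qb (2.50) the highest in wild type. Itgam alone read 7.51 to 8.11 in wild type, so it made up most of that sum. Marker by marker, 11 of 13 were lower in the labelled knockout (median -1.23). Pancreatic acinar markers, which belong to neither cell type, summed to 3.17, 3.21 and 3.13 against 10.28, 8.85 and 8.06, and 13 of 14 were called lower in the labelled knockout (median -8.21). Their highest wild type members were Ctrb1 (6.41) and Prss2 (5.91). None of the pan-epithelial, goblet or colonocyte markers passed the test in macrophages (limma), and the sums of each of these lists overlapped between genotypes. The part of epithelial or pancreatic RNA in the macrophage values was not tested.

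None of the other enterocyte genes passed in macrophages. Of 21 genes of fat absorption 9 were lower and 12 higher (median 0.08, and -0.04 after normexp), with Abcg8 at 0.89 and Abca1 at -0.83. Of 13 hydrolases 7 were lower and 6 higher (median -0.06), and Ggt1 (-2.13, SE 0.42, limma adjusted p = 0.111) and Enpp3 (-2.02, SE 0.40, limma adjusted p = 0.109) were the furthest. Of 16 transporters 5 were lower and 11 higher (median 0.32), led by Slc40a1, the iron exporter (0.95, SE 0.32), and Slc7a9 (0.71). Of 12 structural genes 2 were lower and 10 higher (median 0.31), led by Pls1 (0.69) and Plek2 (0.68). Of 16 transcription factors 4 were lower and 12 higher (median 0.61), with Maf at -1.31 (SE 0.43) and Hnf4a at 1.1 (SE 0.53).

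In salivary gland only Apob could be compared, since it alone was well above background on at least 4 of the 8 arrays. It read -2.55, -2.17, -0.50 and -0.51 in the arrays labelled Irgm1-/- and -1.08, -1.08, -0.34 and 0.17 in wild type, and the groups overlapped. The difference was -0.85 (SE 0.52, limma adjusted p = 0.350), in a tissue where 2.27% of 11478 genes passed and the median of all genes was -0.07.

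Whether the genotype difference itself differed between intestine and macrophages was tested as an interaction over all 20 arrays. None of the 10 passed (0 of 10, limma), against 0.629% of 23692 genes, of which 12.8% had an unadjusted p under 0.05. For 5 of the 10 (Apob, Apoa1, Fabp1, Lct and Sis) the macrophage side is at or near background, since they did not pass the filter there, so the interaction speaks only to the other 5. Of those, Alpi and Mttp were each well above background on only 3 of the 6 macrophage arrays. For Slc5a1 the difference in intestine minus that in macrophages was -0.96 (SE 0.36, 95% interval -1.71 to -0.21, limma adjusted p = 0.265). For Lct it was -2.94 (SE 1.6, limma adjusted p = 0.454), with the macrophage side not above background in either genotype.

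The genes outside the set whose levels followed the mean of the 10 most closely over the 20 arrays were 9130221J18Rik, Defa40, Defa27 and Fgf15, each with a Pearson r of 0.993 among 15665 genes. Defa40 and Defa27 encode defensins, antimicrobial peptides of Paneth cells, and Fgf15 is the hormone of the distal intestine that signals bile acid uptake to the liver. The arrays fall into 3 tissues and r follows that split: Fgf15 had mean levels of 2.55, -3.77 and -3.50 in small intestine, macrophages and salivary gland.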

How the data were processed

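RNA was labelled with Cy5 and hybridized to 20 single-colour Agilent arrays (design 026655). Per the file headers, spots were read with Feature Extraction 11.5.1.1, and the deposited processed signals are linear intensity values, corrected for background within each array, with no normalization between arrays. The authors' table of all arrays also holds intensity values, normalized in a way not given in the sources used here (Spearman correlation with the scanner signals at least 0.933 on every array), and served as an alternative.

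Of 43020 non-control spots per array, outliers (0.434%) were left out and 0 were saturated. Log2 signals were averaged per probe and the array's 75th percentile was subtracted. Probes were named by accession (27508) or by the name in the file (11921), and the probe brightest on average over the 20 arrays stood for a gene. A gene was tested where well above background on at least 3 arrays (4 in salivary gland). Groups were compared with limma 3.58.1 (R 4.3.3, version 1.17.8 of data.table), adjusted by Benjamini-Hochberg over all genes at a threshold of 0.05. Tissue comparisons and the interaction used a single fit of all 20 arrays with 6 group means. The number of arrays limits the precision. Figures were drawn with matplotlib 3.10.9.

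The named genes are the 10 members with every probe; from each list of enterocyte genes up to 4 past the threshold or otherwise the 2 with the largest change; of each marker list up to 2 with the highest wild type level; and the genes most alike over arrays (of the 5 highest, a probe without a symbol is left out). Intestinal transcription factors and markers of gut position were added after their values were seen. Members and lists were chosen with earlier results of these data known.

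Each tissue has 2 slides, both holding both genotypes. After removing group means, same-numbered mice correlated in small intestine by 0.227, 0.279 and 0.332, and in the macrophages by 0.454, 0.237 and 0.63, so the number pairs samples there. In salivary gland the values were 0.222, -0.11, -0.525 and 0.445, and it does not. Alternatives were other scalings, filters and probe rules, slide and number as blocks (slide as a random block between tissues), sex as a covariate, females only and leaving out each array.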

Additional observations from a re-analysis of the deposited data

How the results depend on the processing

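In small intestine 0 of the 10 genes passed in any setting, and between wild type tissues all 10 passed in every setting. Between tissues, members with only a bound passed the filter through the intestine, so that count describes the genes and supports nothing further. The median of the members in small intestine was 0.015 under quantile normalization and 0.021 in the authors' table. In macrophages it was 0.048 with detection on every array, 0.61 both with sex as a covariate and in females only, and -0.33 to 0.28 leaving out each array, with 0.28 without wild type replicate 3. In macrophages 1 member (Slc5a1) passed when all 20 arrays were fitted together, and also with the replicate block. The replicate block changed no other call of a member. Against macrophages the wild type median as fitted was 9.05 with arrays set to their median, 6.52 with the percentile over detected probes and 5.58 after normexp. Against salivary gland it was 7.29, 7.64 under quantile normalization and 5.20 after normexp.

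Signs turned for differences near 0. In small intestine Apob was -0.015 with arrays set to their median and -0.11 with sex as a covariate or in females only, Slc5a1 was -0.051 and -0.23, Apoa1 was 0.10 (quantile) and 0.11 (authors' table), and Sis was 0.22 in both and 0.019 after normexp. In macrophages Apoa4 was -0.067 after normexp, and Alpi 0.64 with sex as a covariate or in females only. In the interaction Sis was -0.020 with arrays set to their median and -1.04 in females only, Fabp2 was 0.19 with the percentile over detected probes and 0.32 under quantile normalization, and in females only Apoa4 was -0.10, Alpi -0.96 and Mttp -0.29. Leaving out each array, small intestine gave -0.049 to 0.19 for Slc5a1 and -0.14 to 0.87 for Apoa4, and macrophages -0.27 to 0.28 for Apoa4. The interaction gave -0.19 to 0.83 for Apoa4, -0.56 to 0.13 for Fabp2, -0.16 to 0.52 for Sis, -0.0066 to 0.36 for Mttp, -0.33 to 0.70 for Apob, -0.064 to 1.58 for Alpi and -0.031 to 2.08 for Apoa1.

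Counts over all genes moved further. In small intestine 26 calls became 1 after normexp, with the replicate block and with sex as a covariate, 0 in females only and 0 to 40 leaving out each array. In macrophages 29 became 87 with arrays set to their median, 184 after normexp, 13 with detection on every array, 868 from all 20 arrays, 1102 with the replicate block, 11 with sex, 12 in females only and 12 to 36 leaving out each array. In salivary gland 260 became 149 with arrays set to their median, 146 without a filter, 708 with slide as a block, 1074 with the replicate block and 117 to 368 leaving out each array. There, detection on every array left no member to test. Between wild type intestine and salivary gland 18009 became 10556 with the replicate block. The interaction's 149 became 226 with the percentile over detected probes, 338 under quantile normalization, 60 without a filter, 236 with slide as a block, 3 in females only, 28 with the shared animal as a replicate block and 24 to 377 leaving out each array. The causes of these shifts were not tested. The number of arrays, and signal near background outside the intestine, limit what could be measured.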
